A study of Mus musculus with 24 samples.

Results

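The common gamma chain cytokine receptors were represented by 7 genes, Il2ra, Il2rb, Il2rg, Il7r, Il4ra, Il15ra and Il21r, chosen by symbol as the chains that bind IL-2, IL-4, IL-7, IL-15 and IL-21. All 7 were among the 17464 genes with listed values, and all 7 were among the 16630 genes that passed the filter on low values. Messenger RNA had been measured by bulk RNA-seq in regulatory T (Treg) cells sorted from the spleens of wild-type mice of the strain C57BL/6JRccHsd. The groups were resting Treg (rTreg) cells, gated as CD62L+ CD44-, activated Treg (aTreg) cells, gated as CD62L- CD44+, and KLRG1+ Treg (kTreg) cells, each from 4 young mice of 2 months and 4 old mice of 26 months. All 3 subsets of a mouse were sequenced, so 24 libraries from 8 mice made 6 groups of 4, and mice are numbered 1 to 4 within each age. Both sexes were used in the study, and the sex of these mice is not given in the sources used here. Neither is the gate that separated Treg cells from other T cells for these libraries. In other sorts of the study that gate was CD4+ CD25+, and CD25 is the product of Il2ra, so the cells may have been selected on the protein of a gene measured here.

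These receptors share the chain encoded by Il2rg, which has no high affinity for a cytokine by itself and works together with the other chains of each receptor. The alpha chain of IL-2 (Il2ra) and the beta chain that IL-2 and IL-15 share (Il2rb) complete the high-affinity IL-2 receptor, on which Treg cells depend because they make little IL-2 themselves. Signals run from JAK1 and JAK3 on the receptor tails to STAT proteins, mainly STAT5 for IL-2, IL-7 and IL-15, STAT6 for IL-4 and STAT3 for IL-21. In the periphery, Treg cells are usually recognised by high IL-2 receptor alpha and low IL-7 receptor alpha on their surface.

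By GENCODE M39 on GRCm39, all 7 genes are protein coding. Il2ra (ENSMUSG00000026770, chr2:11647618-11698004, plus strand) and Il15ra (ENSMUSG00000023206, chr2:11710101-11739128, plus strand) lie next to each other, 12096 bases apart with 0 coding genes between them. Il4ra (ENSMUSG00000030748, chr7:125151079-125182844, plus strand) and Il21r (ENSMUSG00000030745, chr7:125202601-125232756, plus strand) are likewise neighbours, 19756 bases apart with 0 coding genes between them. Il7r (ENSMUSG00000003882, chr15:9505874-9530262) and Il2rb (ENSMUSG00000068227, chr15:78363456-78395566) lie far apart on the minus strand of chromosome 15, and Il2rg (ENSMUSG00000031304, chrX:100307984-100311861) on the minus strand of the X chromosome. Antisense lncRNA genes share 376 exonic bases with Il2rb and 571 with Il4ra, and since no source used here states a strand setting, reads from these stretches cannot be assigned to a strand.

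The promoter sequences of Il2ra and Il7r are shown because these members had the largest fitted age differences, in opposite directions. Each runs from 250 bases before to 50 bases after the gene's start in the RefSeq table for GRCm38.p6, matches GRCm39 exactly at a single place, and is written 5′ to 3′ on the strand of the gene. Capitals mark ACTTCCT, which holds the core that ETS factors read, and TTCNNNGAA, the palindrome that STAT dimers bind, searched on both strands.
Il2ra, chr2:11647353-11647652: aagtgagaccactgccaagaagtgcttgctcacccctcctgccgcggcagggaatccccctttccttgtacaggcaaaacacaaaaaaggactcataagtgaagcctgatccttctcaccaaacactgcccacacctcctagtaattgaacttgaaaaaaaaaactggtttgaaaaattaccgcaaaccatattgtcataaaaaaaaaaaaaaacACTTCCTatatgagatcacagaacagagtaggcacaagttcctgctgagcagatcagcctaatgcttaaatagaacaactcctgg
Il7r, chr15:9529913-9530212: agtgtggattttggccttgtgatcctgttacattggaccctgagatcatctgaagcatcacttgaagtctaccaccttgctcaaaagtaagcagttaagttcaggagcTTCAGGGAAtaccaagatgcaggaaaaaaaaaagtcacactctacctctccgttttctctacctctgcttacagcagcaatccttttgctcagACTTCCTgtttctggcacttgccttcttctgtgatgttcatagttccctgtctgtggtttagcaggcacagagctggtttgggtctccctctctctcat
ACTTCCT lay 35 bases before the RefSeq start of Il2ra and 49 bases before that of Il7r. Of 32851 promoters of the same length, 9.35% held it. By GENCODE M39 the minus-strand gene Il7r begins at 9530262, so its whole window, with both marked stretches, lies inside that gene span. Only Il7r, of the 6 members with a promoter entry, had TTCNNNGAA, 142 bases before its RefSeq start, against 8.30% of all promoters. The forkhead letters GTAAACA, present in 3.65% of promoters, occurred in the window of Il21r alone among the 6. Such matches describe the letters in these windows and not bound sites.

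The libraries held 15045747 to 29521942 reads on listed genes. The markers of Treg cells (Foxp3, Ikzf2, Ctla4, Tnfrsf18, Cd4 and Cd3e) were at 2227 or more in every library, and Klrg1 ran from 16559 to 41561 in kTreg libraries against at most 357 in the others. In old aTreg libraries Foxp3 was 5079 to 19813 and Ctla4 3128 to 8745, below all young ones at 20351 to 25465 and 10431 to 13058. Cd3e was higher, 20050 to 22641 against 17949 to 19348, and Ikzf2, Tnfrsf18 and Cd4 overlapped between the ages. Some libraries stood apart. Old aTreg library 2 had a Foxp3 value of 5079, where the other 3 of its group had 16925 to 19813. Young kTreg library 4 listed 4913 genes at 0, where the next library listed 2756. The 3 libraries of young mouse 2 summed to 15405 (rTreg), 8381 (aTreg) and 6782 (kTreg) over 6 B cell markers, against at most 2064 in the other 21 libraries. Old rTreg libraries held 9813 to 25985 over 5 macrophage and monocyte markers and 2524 to 6119 over 4 mast cell and basophil markers, where young rTreg libraries held 528 to 7937 and 52.1 to 139.5. Over 5 macrophage and monocyte markers young kTreg library 2 summed to 19772. Results are therefore also given without old aTreg library 2 and young kTreg libraries 2 and 4 together, a set chosen after these values were seen, and without each mouse, young mouse 2 included. In sorted but bulk samples, a lower value can come from fewer cells that express a gene or from less RNA per cell, and these cannot be told apart.

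Between subsets, calls were made against rTreg cells and not between kTreg and aTreg cells. A gene was called when its adjusted p by limma was below 0.05 over all genes tested and its fold change was above 1.5. Against rTreg cells, 3 of 7 members were called in kTreg cells (Il7r and Il15ra higher, Il4ra lower), where 15.5% of all genes were called, and the same 3 in the same directions in aTreg cells, where 8.01% were. These comparisons share the rTreg libraries. Between kTreg and aTreg cells 0 of 7 were called by limma and 0 by edgeR or DESeq2, with 1 (Il21r, below the fold threshold) at an unadjusted p below 0.05, where 7.39% of all genes were called. The median log2 fold change of the 7 was 0.04 there against -0.08 over all genes, 0.18 against -0.01 for kTreg over rTreg cells, and -0.10 against 0.06 for aTreg over rTreg cells.

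With age, calls were made in aTreg and rTreg cells. In old aTreg cells 3 of 7 were called, Il7r higher and Il2ra and Il4ra lower, where 2.71% of all genes were called. In old rTreg cells Il2ra alone was called, lower, where 5.83% were. In kTreg cells 0 of 7 were called by limma, 0 by edgeR and 0 by DESeq2, where 1.26% of all genes were called, and 2 (Il7r, and Il15ra below the fold threshold) had an unadjusted p below 0.05. The median log2 fold change with age of the 7 was -0.23 in aTreg, 0.15 in rTreg and 0.11 in kTreg cells, against 0.01, -0.08 and 0.12 over all genes. A direct test of whether an age difference differed between subsets called Il2rg between aTreg and rTreg cells, where 1.56% of all genes were called. It called 0 of 7 between kTreg and aTreg cells (0.156% of all genes) and 0 of 7 between kTreg and rTreg cells (3.02%), by limma, edgeR and DESeq2, with 4 and 1 at an unadjusted p below 0.05, of which 3 and 0 were past the fold threshold.

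The same subset comparisons were made within each age. Old aTreg against old rTreg cells gave 4 called members (Il2rg, Il7r and Il15ra higher, Il4ra lower), where 8.6% of all genes were called. Young aTreg against young rTreg cells gave 0 by limma, edgeR and DESeq2, where 3.35% were, with 2 (Il7r, and Il15ra below the fold threshold) at an unadjusted p below 0.05. For kTreg against rTreg cells limma called Il7r alone, in young (15.8% of all genes called) and in old mice (8.86%). There edgeR called Il7r and Il4ra in young and Il7r in old mice, and DESeq2 called Il7r, Il15ra and Il4ra at both ages. For kTreg against aTreg cells 0 members were called by any of the 3 tools in young (6.95%) or old mice (2.2%), with 4 (Il7r, and Il21r, Il4ra and Il2rg below the fold threshold) and 2 (Il2ra and Il2rb, below it) at an unadjusted p below 0.05.

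**Figure D1:**
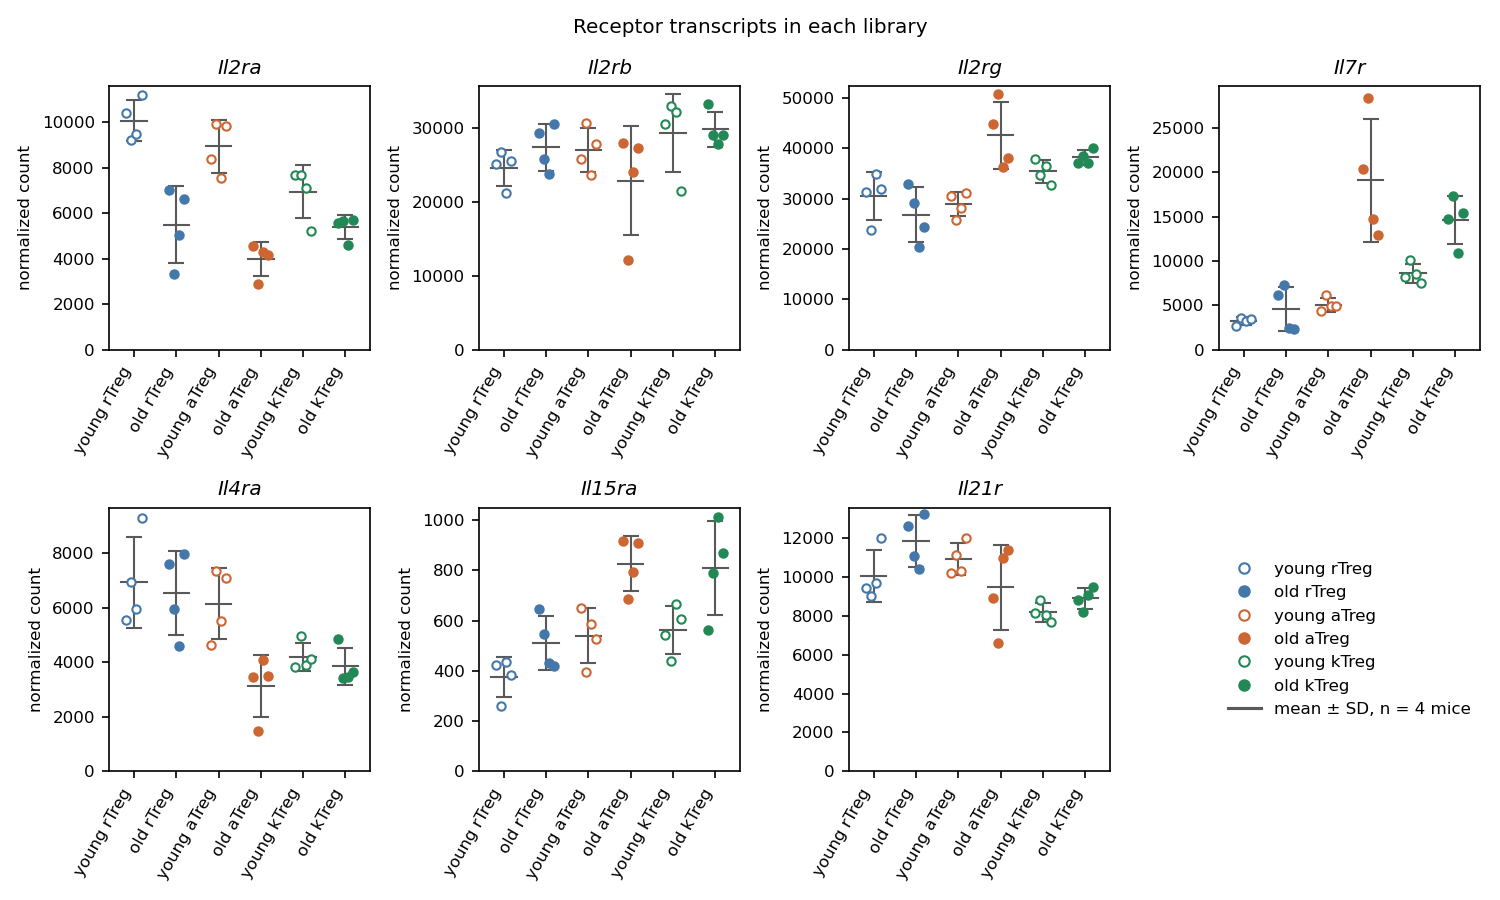
Normalized counts (linear axes from 0) of the 7 receptor genes in the 24 libraries, with 1 point per library in mouse order, open for young and filled for old mice, and lines for the mean ± SD of 4 mice. Old aTreg cells have the lowest group mean of Il2ra, 3974, and include the highest value of Il7r, 28423.

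**Figure D2:**
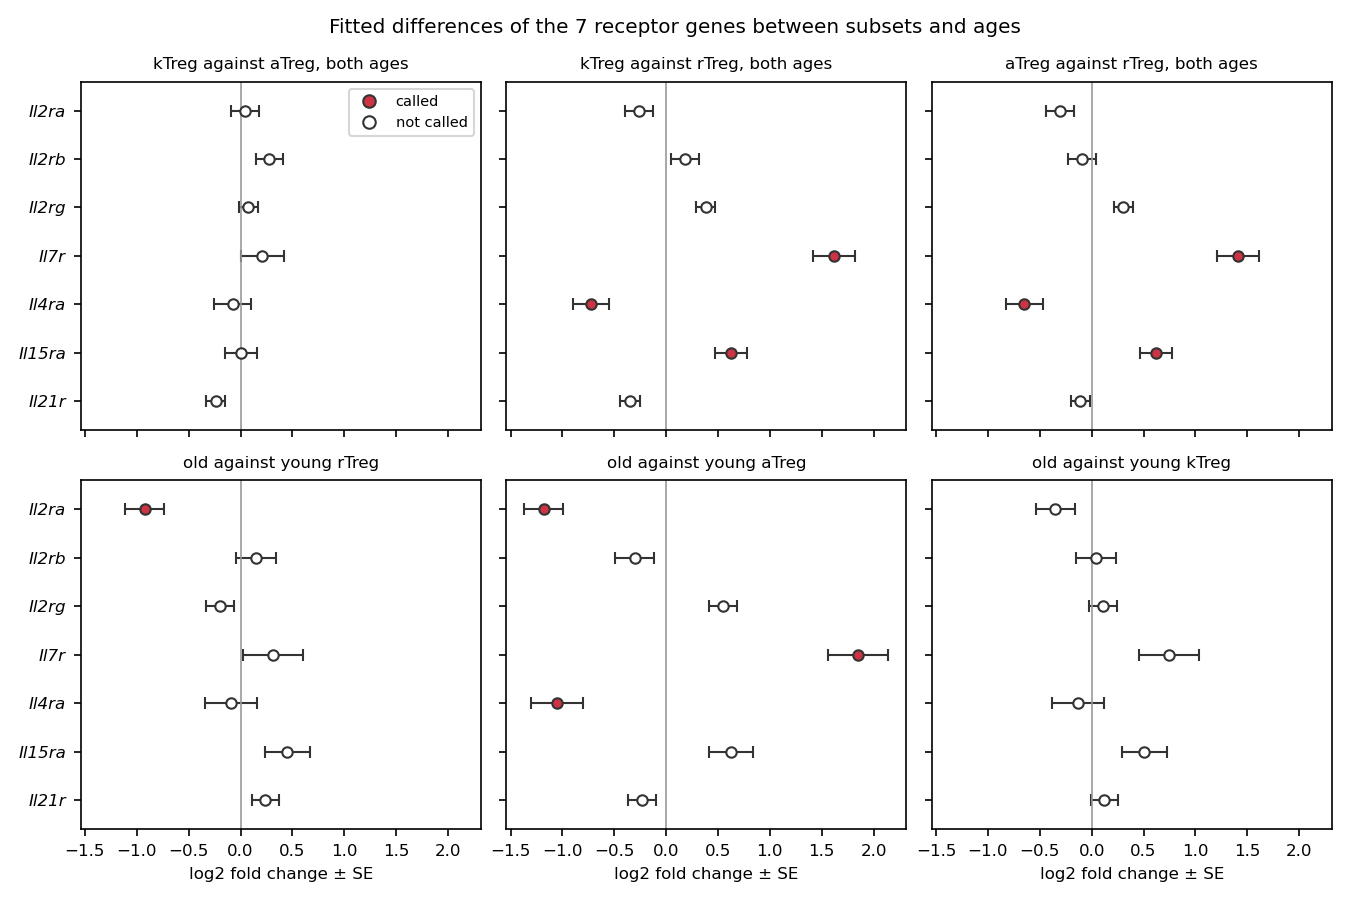
Fitted log2 fold changes with their standard errors for the 7 receptor genes in 6 comparisons, filled where called (adjusted p below 0.05 by limma and a fold change above 1.5). Il7r lies at 1.62 and 1.41 against rTreg cells, and Il2ra at -0.93 and -1.18 with age in rTreg and aTreg cells.

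Il2ra encodes the alpha chain of the IL-2 receptor, CD25. Its normalized counts were 10399.9, 9199, 9462 and 11167 in young rTreg libraries 1 to 4 and 7021, 3334, 5027 and 6605 in the old ones. In aTreg libraries they were 8388, 9925, 7549 and 9843 in young and 4558, 2901, 4279.6 and 4159 in old mice. Young and old values did not overlap in either subset, and the lowest of each old group came from mouse 2. In kTreg cells they were 7676, 7688, 7121 and 5231 in young and 5574, 5675, 4588 and 5709 in old mice, and young library 4 lay within the old range. The means fell from 10057 ± 902 to 5497 ± 1678 (SD, n = 4 mice) in rTreg and from 8926 ± 1158 to 3974 ± 735 in aTreg cells. On the log2 scale Il2ra fell with age by 0.93 ± 0.19 (SE) in rTreg cells (limma adjusted p = 0.0037) and by 1.18 ± 0.19 in aTreg cells (adjusted p = 0.00085), folds of 1.90 and 2.26. In kTreg cells the difference was -0.35 ± 0.19 (adjusted p = 0.37).

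That difference of Il2ra was not shown to be smaller in kTreg than in aTreg cells. The interaction was 0.83 ± 0.27 on the log2 scale with a limma adjusted p of 0.32. Its call in aTreg cells held under all 46 alternatives, and that in rTreg cells under 45, the exception being a fit of the rTreg libraries alone (adjusted p = 0.059). Between subsets Il2ra was lower in young kTreg than in young rTreg libraries with no overlap, by 0.55 ± 0.19 (adjusted p = 0.044), a fold of 1.46 that missed the fold threshold. Old kTreg libraries all lay above old aTreg libraries, by 0.45 ± 0.19, which did not pass the test (adjusted p = 0.22). Beside the age difference in rTreg cells stand the macrophage and mast cell sums given above, higher in old libraries, and their part in it was not tested. In aTreg libraries the macrophage sums were 34.6 to 2762 in young and 117 to 251 in old mice. The mast cell sums there were 27 to 47.6 and 99.0 to 192, without overlap. Foxp3 and Ctla4 were also lower in all old than in all young aTreg libraries, as given above. The part of the mix of cells in the aTreg age differences of Il2ra and Il7r was not tested.

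Il2rb encodes the beta chain, CD122, through which IL-2 and IL-15 both signal. In rTreg libraries 1 to 4 it had normalized counts of 25174, 26744, 21141 and 25470.4 in young and 29269, 25822, 23773 and 30579 in old mice. In aTreg libraries it had 25759, 30677, 23666 and 27799 in young and 27979.9, 12179.5, 24014 and 27288 in old mice, and in kTreg libraries 30527, 32934, 32138 and 21527 in young and 33218, 29101, 27875 and 29000.4 in old mice. Old aTreg library 2 and young kTreg library 4, which stood apart by other values too, were the lowest of their groups. The groups overlapped in every comparison of subset or age that was made, and Il2rb was called in none. Its log2 differences between subsets were 0.28 ± 0.13 for kTreg over aTreg (limma adjusted p = 0.20), 0.18 ± 0.13 for kTreg over rTreg (adjusted p = 0.36) and -0.10 ± 0.13 for aTreg over rTreg cells (adjusted p = 0.76). With age they were 0.15, -0.30 and 0.04 in rTreg, aTreg and kTreg cells, with adjusted p of 0.71, 0.59 and 0.93. The sign for aTreg over rTreg cells turned to 0.04 without old aTreg library 2.

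Il2rg encodes the common gamma chain, CD132, which every receptor of the family needs. Its normalized counts in rTreg libraries 1 to 4 were 31431, 23819, 34889 and 32005 in young and 33037, 29236, 20516 and 24475 in old mice. In aTreg libraries they were 30647, 25833, 28214 and 31176 in young and 44898, 50899, 36374 and 38208 in old mice. Old aTreg libraries lay above all young aTreg and all old rTreg libraries. In kTreg libraries they were 37998, 34710.2, 36423 and 32754 in young and 37143, 38459.7, 37109.8 and 40148 in old mice, with overlap between the ages. The mean went from 28968 ± 2456 in young to 42595 ± 6639 in old aTreg cells (SD, n = 4 mice), higher by 0.55 ± 0.13 on the log2 scale (limma adjusted p = 0.022, fold 1.46), below the fold threshold. In rTreg cells the age difference was -0.20 ± 0.13 (adjusted p = 0.42). The age difference was larger in aTreg than in rTreg cells by 0.74 ± 0.19 on the log2 scale (adjusted p = 0.047), which was a call, and old aTreg over old rTreg cells gave 0.68 ± 0.13 (adjusted p = 0.0021, fold 1.60, higher in 4 of 4 mice).

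The interaction call of Il2rg was close to the threshold. It held in 17 of 47 alternatives, and the value stayed between 0.62 and 0.86, with adjusted p from 0.0096 to 0.23. It held without young rTreg library 2, old rTreg library 1 or 2, young aTreg library 1, old aTreg library 3 or young kTreg library 4, and was lost without each of the other 18 libraries. Those 18 included 7 kTreg libraries, which enter only through the shared spread, and old aTreg library 2, without which the value was 0.65 (adjusted p = 0.12). It was also lost without each mouse but young mouse 2. Over both ages Il2rg was higher in kTreg than in rTreg cells in 8 of 8 mice, by 0.38 ± 0.09 (adjusted p = 0.0048), and in aTreg than in rTreg cells in 5 of 8 mice, by 0.31 ± 0.09 (adjusted p = 0.038), folds of 1.30 and 1.24 that missed the fold threshold.

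Il7r encodes the alpha chain of the IL-7 receptor, CD127, which also pairs with the product of Crlf2 to bind TSLP. Its group means spanned the widest range of the 7, from 3257 to 19109. Its normalized counts were 2663, 3563, 3294 and 3507 in young rTreg libraries 1 to 4 and 6135, 7252, 2487 and 2376 in old ones, where mice 1 and 2 lay above and mice 3 and 4 below the whole young range. In aTreg libraries they were 4365, 6222, 4888 and 4884 in young and 20332, 28423, 14793 and 12889 in old mice. In kTreg libraries they were 8245, 10126, 8536 and 7544 in young and 14713, 17293, 10897 and 15474 in old mice. Young and old values did not overlap in aTreg or in kTreg cells, and mouse 2 was highest in all 3 old groups. The mean rose with age from 5089.7 ± 794 to 19109 ± 6966 (SD, n = 4 mice) in aTreg cells, by 1.85 ± 0.29 on the log2 scale (limma adjusted p = 0.00077, fold 3.61). In kTreg cells it went from 8613 ± 1092 to 14594 ± 2692, a difference of 0.75 ± 0.29 that did not pass the test (adjusted p = 0.22), and in rTreg cells the difference was 0.32 ± 0.29 (adjusted p = 0.57).

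Against rTreg cells, Il7r was higher in kTreg cells in 8 of 8 mice, by 1.62 ± 0.20 on the log2 scale (limma adjusted p = 4e-06, fold 3.07), with no overlap of the libraries. It was also higher in aTreg cells in 8 of 8 mice, by 1.41 ± 0.20 (adjusted p = 7.6e-05, fold 2.66). In old mice aTreg over rTreg cells gave 2.18 ± 0.29 (adjusted p = 5e-05, fold 4.52), and in young mice 0.64 ± 0.29 (adjusted p = 0.32). The test of that difference missed the threshold, with 1.54 ± 0.41 and an adjusted p of 0.060. With the mouse as a replicate block it passed, with an adjusted p of 0.037. Without old rTreg library 1, old rTreg library 2, old aTreg library 4 or young kTreg library 4 it also passed, with values of 1.74, 1.82, 1.70 and 1.54, and without old mouse 2 with 1.61. For kTreg over rTreg cells the difference was 1.40 ± 0.29 in young (adjusted p = 0.0014) and 1.84 ± 0.29 in old mice (adjusted p = 0.00029). The kTreg over rTreg, aTreg over rTreg and aTreg age calls of Il7r held under all alternatives, 47, 47 and 46 in number. Without the 3 libraries that stood apart they were among those that held.

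Il2ra and Il7r thus moved in opposite directions with age in aTreg cells. Per kilobase of exon, the level of Il2ra over that of Il7r had a median of 2.47 in young rTreg libraries, with a range of 2.11 to 3.19. In old rTreg libraries the ratio ran from 0.375 to 2.27, with mice 1 and 2 below 1 and mice 3 and 4 above it. Young aTreg libraries had ratios of 1.26 to 1.65 and old aTreg libraries of 0.0833 to 0.263. In kTreg libraries they were 0.566 to 0.760 in young and 0.268 to 0.344 in old mice. Il2ra thus exceeded Il7r in all young rTreg and aTreg libraries, and Il7r exceeded Il2ra in all kTreg and all old aTreg libraries. No test was made of the ratio, which rests on the same values as the tests above.

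**Figure D3:**
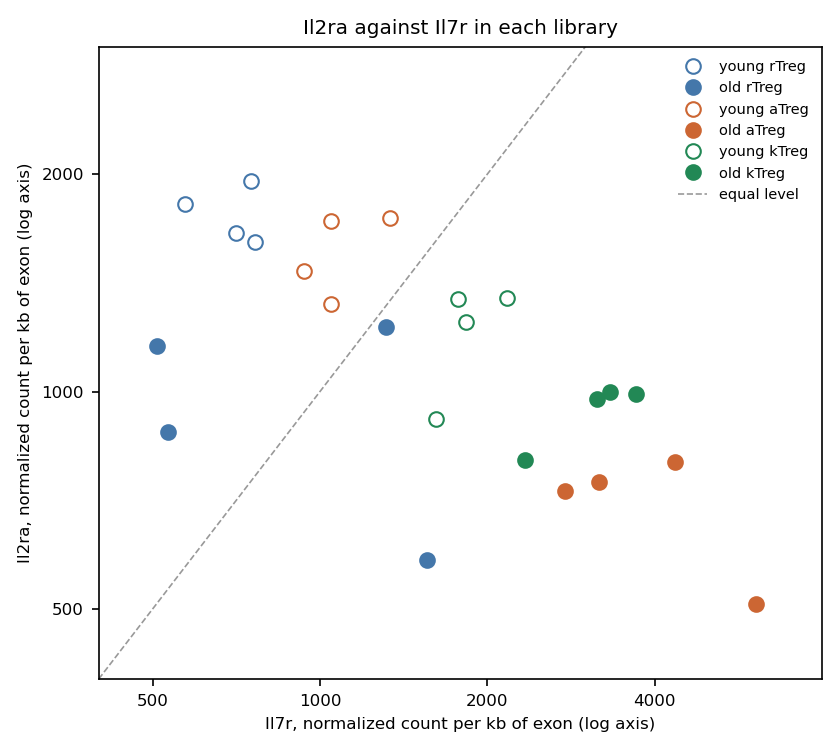
Il2ra against Il7r in each of the 24 libraries as normalized counts per kilobase of exon (both axes logarithmic), with open points for young and filled points for old mice and a dashed line where the levels are equal. All young rTreg and young aTreg libraries lie above the line, and all kTreg and old aTreg libraries lie below it.

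Il4ra encodes the alpha chain of the IL-4 receptor, which pairs with the common gamma chain or with the product of Il13ra1. Its normalized counts in rTreg libraries 1 to 4 were 5537, 6929, 5961 and 9280.4 in young and 7586, 5965, 4609.6 and 7981 in old mice. In aTreg libraries they were 4639, 7330.4, 5526 and 7099 in young and 3463, 1476, 4065 and 3494 in old mice, with no overlap. In kTreg libraries they were 3829, 4958, 3904 and 4111 in young and 4858, 3436, 3468 and 3627 in old mice. Old aTreg library 2 had the lowest value of all 24, and the young and old ranges of rTreg and of kTreg cells overlapped. Il4ra was lower in kTreg than in rTreg cells in 8 of 8 mice, by 0.72 ± 0.18 on the log2 scale (limma adjusted p = 0.0045, fold 1.65), a call held under all 47 alternatives. It was lower in aTreg than in rTreg cells in 7 of 8 mice, by 0.65 ± 0.18 (adjusted p = 0.019, fold 1.57), and fell with age in aTreg cells by 1.05 ± 0.25 (adjusted p = 0.021, fold 2.07). With age it differed by -0.09 ± 0.25 in rTreg and -0.13 ± 0.25 in kTreg cells (adjusted p = 0.89 and 0.81). For aTreg over rTreg cells Il4ra gave -1.13 ± 0.25 in old mice (adjusted p = 0.0056, fold 2.19) and -0.17 ± 0.25 in young mice (adjusted p = 0.89). The test of that difference gave -0.96 ± 0.35 and did not pass (adjusted p = 0.18).

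Those aTreg calls of Il4ra rested in part on few libraries. Without old aTreg library 2 the age difference was -0.72 (limma adjusted p = 0.080) and the difference to rTreg cells -0.48, below the fold threshold. The age call was also lost without young aTreg library 2 (-0.96, adjusted p = 0.082) or 4 (-0.97, adjusted p = 0.077), without young mouse 2, 3 or 4 (adjusted p = 0.10, 0.062 and 0.050), and without old mouse 2 (adjusted p = 0.11). The call against rTreg cells was also lost without young rTreg library 4 (-0.57) or young aTreg library 1 (-0.59), without young mouse 1, young mouse 3 or old mouse 4 (-0.63, -0.66 and -0.64, adjusted p = 0.052, 0.059 and 0.058), and without old mouse 2 (-0.50). B cells express Il4ra, and the B cell marker sums were highest in the libraries of young mouse 2, whose values of 6929, 7330.4 and 4958 were the second highest, the highest and the highest of their groups. The part of those cells in the Il4ra values was not tested. Nor was that of macrophages and monocytes, whose marker sums were 9813 to 25985 in old rTreg and 117 to 251 in old aTreg libraries.

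Il15ra encodes the alpha chain of the IL-15 receptor, which holds IL-15 and presents it to cells with the beta and gamma chains. It had the lowest values of the 7, with at least 235 reads in each library. Its normalized counts in rTreg libraries 1 to 4 were 422, 260.3, 434 and 383 in young and 648, 547, 433 and 418 in old mice. In aTreg libraries they were 652, 394, 588 and 528 in young and 917, 687, 792 and 909.6 in old mice, without overlap, and in kTreg libraries 541, 439, 664 and 605 in young and 563, 791, 1013 and 870.4 in old mice. The means of the old groups lay above those of the young groups in each subset, but the fitted log2 differences of 0.45, 0.63 and 0.51 in rTreg, aTreg and kTreg cells did not pass the test (limma adjusted p = 0.22, 0.14 and 0.27). Il15ra was higher than in rTreg cells in kTreg cells in 7 of 8 mice, by 0.62 ± 0.15 (adjusted p = 0.0044, fold 1.54), and in aTreg cells in 8 of 8 mice, by 0.62 ± 0.15 (adjusted p = 0.0096, fold 1.53).

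Folds this close to 1.5 moved across the threshold. For kTreg over rTreg cells the value of Il15ra was 0.54, 0.58, 0.58 and 0.56 without young rTreg library 2, old rTreg library 4, young kTreg library 3 or old kTreg library 3, and 0.53 and 0.56 without old mouse 3 or 4. For aTreg over rTreg cells it was 0.53, 0.58, 0.57 and 0.57 without young rTreg library 2, old rTreg library 3 or 4 or young aTreg library 1, and 0.55 without old mouse 4 (limma adjusted p = 0.060). All other adjusted p of these fits stayed below 0.05.

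Il21r encodes the receptor chain that binds IL-21. Its normalized counts in rTreg libraries 1 to 4 were 9434, 9040.4, 9686 and 12044 in young and 12660.0, 11074, 10413 and 13259.9 in old mice. In aTreg libraries they were 10223, 11167, 10321 and 12033 in young and 8951, 6630.1, 10988 and 11397 in old mice. In kTreg libraries they were 8173, 8826, 8029.6 and 7701 in young and 8841, 8202, 9088 and 9520.2 in old mice. The kTreg values were the least spread of the 3 subsets and lay below those of rTreg cells of the same age without overlap. Il21r was lower in kTreg than in rTreg cells in 8 of 8 mice, by 0.35 ± 0.09 on the log2 scale (limma adjusted p = 0.0089), a fold of 1.27 that missed the fold threshold. Against aTreg cells it was lower in 7 of 8 mice, by 0.24 ± 0.09, which did not pass the test (adjusted p = 0.10). With age it differed by 0.24, -0.23 and 0.12 in rTreg, aTreg and kTreg cells (adjusted p = 0.30, 0.53 and 0.65).

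The order of the levels, as normalized counts per kilobase of exon, kept the shared chains on top. Il2rg was first in all 6 groups, with means from 11234 ± 2291 (SD, n = 4) in old rTreg to 17844 ± 2781 in old aTreg cells, and Il2rb was second in all, from 5259 ± 1686 to 6853 ± 539.6. Il15ra was last in all, from 84.3 ± 17.9 to 186 ± 24.5, and Il4ra was next to last. Il7r took ranks 3 to 5 of the 7. It had rank 5 at 698 ± 88.4 in young rTreg and 1092 ± 170.3 in young aTreg cells, and rank 4 at 978 ± 537 in old rTreg and 1847 ± 234 in young kTreg cells. It had rank 3 in old aTreg cells at 4098 ± 1494 and in old kTreg cells at 3129.8 ± 577, where its libraries overlapped those of Il21r (2799.9 ± 645 and 2629 ± 162). Il2ra had rank 4 in young rTreg and young aTreg cells, at 1761 ± 158 and 1563 ± 203, and rank 5 in the other groups. Neighbours in the order that overlapped were also Il7r and Il4ra in young rTreg, Il7r, Il2ra and Il4ra in old rTreg, Il2ra and Il7r in young aTreg, and Il2rb and Il7r as well as Il4ra and Il15ra in old aTreg cells.

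**Figure D4:**
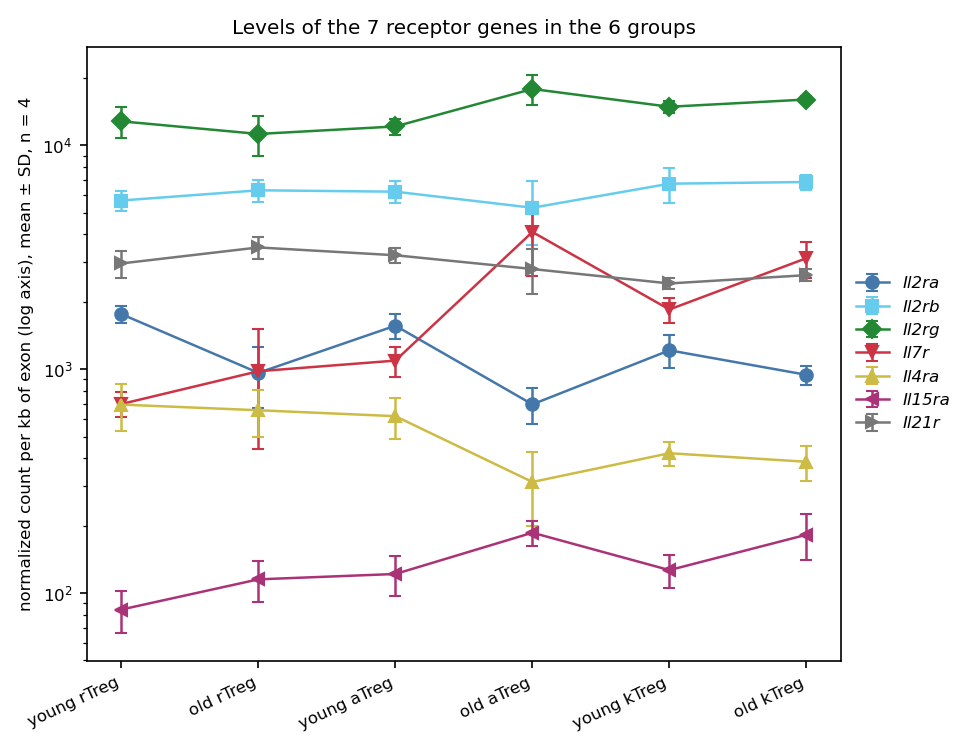
Levels of the 7 receptor genes in the 6 groups as normalized counts per kilobase of exon (logarithmic axis), shown as the mean with its SD over 4 mice. Il2rg is highest and Il15ra lowest in every group, and Il7r rises from 1092 in young to 4098 in old aTreg cells while Il2ra lies at 1563 and 696.

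Values were listed for 3 other chains that pair with members, Il9r, Crlf2 and Il13ra1. Il9r, whose product joins the common gamma chain to bind IL-9, had normalized counts of 1455, 1599, 1997 and 3139 in young and 1443, 1637, 1962 and 1429.6 in old kTreg libraries. All 8 lay above every rTreg and aTreg library, the highest of which was 811. It was higher in kTreg than in aTreg cells by 2.23 ± 0.27 on the log2 scale (limma adjusted p = 1.3e-05) and rose with age in rTreg cells by 1.95 ± 0.39 (adjusted p = 0.003). Crlf2, the partner of Il7r for TSLP, ran from 978 to 1311 in kTreg and reached at most 972 in the other libraries, higher in kTreg than in aTreg cells by 0.62 ± 0.09 (adjusted p = 0.00012). It also rose with age in rTreg cells, by 0.71 ± 0.13 (adjusted p = 0.0017), where 5.83% of all genes were called. The mast cell and basophil marker sums were higher in old rTreg libraries, and their part in the age differences of Il9r and Crlf2 was not tested. Il13ra1 reached at most 442 and was called in no comparison. Unlike the 7 members, 2 of these 3 chains were called between kTreg and aTreg cells, where 7.39% of all genes were called.

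The cytokines themselves were scarce in these cells. Of the 7 ligands Il2, Il4, Il7, Il9, Il15, Il21 and Tslp, values were listed for 5, those other than Il9 and Tslp. Il2 was at most 332, Il4 at most 252, Il7 at most 272, Il15 at most 519.6 and Il21 at most 705. Over both ages, Il2, Il4 and Il21 were lower in kTreg than in aTreg cells (limma adjusted p = 0.009, 0.027 and 0.0015), where Il21 ran from 163 to 313 in young and 196 to 705 in old aTreg libraries and from 0 to 62.8 in young and 105 to 286 in old kTreg libraries. In young mice alone, kTreg over aTreg cells gave 3 of 5 ligands called lower and 1 higher, where 6.95% of all genes were called. In old mice alone 0 of 5 were called, where 2.2% were. Il21 was higher with age in kTreg cells (adjusted p = 0.005), and Il2 and Il4 were higher in aTreg than in rTreg cells (adjusted p = 0.0085 and 0.00049). Il7, the ligand of the Il7r product, was called higher than in rTreg cells in kTreg and aTreg cells (adjusted p = 2.2e-05 and 0.0068) and with age in aTreg cells (adjusted p = 0.022), at low levels. It was listed at 0 in 2 of 4 young and 3 of 4 old rTreg libraries and in 2 of 4 young aTreg libraries, reached at most 117 in old aTreg libraries, and ran from 18.3 to 272 in kTreg libraries. Il4 was higher with age in rTreg and kTreg cells (adjusted p = 0.00011 and 0.024), from 0 to 4.11 in young and 50.3 to 250.5 in old rTreg libraries. Il4 is also made by mast cells and basophils, whose markers were higher in old rTreg libraries, and their part in it was not tested.

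Among the kinases and STAT proteins that carry the signal, Jak3, which binds the common gamma chain, was the single gene of 7 called in the 6 comparisons of subset or age. Its mean rose from 3892 ± 1000.2 in young to 6455 ± 1329.8 in old rTreg cells (SD, n = 4), by 0.74 ± 0.20 on the log2 scale (limma adjusted p = 0.024). With age in rTreg cells 5.83% of all genes were called. The shares were 15.5% for kTreg against rTreg and 8.01% for aTreg against rTreg cells. Of 11 tested genes of the PI3K and MAPK branches, Pik3cd, a catalytic subunit of PI3K, was called in kTreg against rTreg cells at -0.63 ± 0.14 (adjusted p = 0.0026), and Akt1 and Pik3r1 with age in rTreg cells at 0.67 and -0.68 (adjusted p = 0.00024 and 0.014). Of 7 genes of feedback inhibitors, Cish was higher in kTreg than in rTreg cells by 0.77 ± 0.12 (adjusted p = 3.4e-05), and Socs3 was lower in kTreg and aTreg cells than in rTreg cells (adjusted p = 1.2e-05 and 0.017). Socs3 had means of 3864 ± 1071 and 7419 ± 1505 in young and old rTreg cells, against 1942 ± 277 and 2708 ± 458 in kTreg cells. With age in rTreg cells the log2 differences were 0.96 for Socs3, -0.74 for Socs2 and -0.59 for Socs1, all 3 called. The marker sums of macrophages, mast cells and natural killer cells were higher in all old than in all young rTreg libraries. The part of those cells in the age differences of Jak3, Akt1, Pik3r1 and the SOCS genes was not tested. Cish and the SOCS genes encode proteins induced by STATs that damp the same receptors.

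Genes known as targets of these cytokines differed between kTreg and aTreg cells in both directions, with 3 of 13 called higher and 4 called lower in kTreg cells, where 7.39% of all genes were called. Among the 4 with the largest differences, Prdm1, which encodes the repressor BLIMP-1, was higher in kTreg cells by 1.62 ± 0.26 on the log2 scale (limma adjusted p = 0.00022), and Pim2, a survival kinase, was at -1.10 ± 0.23 (adjusted p = 0.0024). Bcl2, a survival gene that IL-7 and IL-2 induce, was at -1.74 ± 0.14 (adjusted p = 7.5e-08). Lta, which encodes lymphotoxin alpha, had means of 1051 ± 353 and 924 ± 224 in young and old kTreg cells against 3379.9 ± 283 and 2018 ± 260.1 in aTreg cells (adjusted p = 3.6e-07). Bcl2l1, outside those 4 and named here after its value was seen, was higher in kTreg cells by 0.88 ± 0.10 (adjusted p = 8.6e-06). The means of Bcl2 were 6198 ± 689 and 3744 ± 499 in young and old rTreg cells, 3443 ± 721 and 4245 ± 798 in aTreg and 750.0 ± 182 and 1783 ± 445 in kTreg cells. With age Bcl2 fell by 0.73 in rTreg cells (adjusted p = 0.027) and rose by 1.24 in kTreg cells (adjusted p = 0.0015), and the test of that difference gave 1.97 ± 0.28 (adjusted p = 0.0006). In aTreg cells 3 of 13 were called with age, where 2.71% of all genes were called. These were Ccnd3 at 1.12, Lta at -0.75 and Bcl2l1 at -0.67 (adjusted p = 0.00085, 0.031 and 0.012).

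Transcription factors known to act on Il7r, Il2rb or genes near them in the same programmes were also counted. Of 12, 7 were called between kTreg and rTreg cells, 2 higher and 5 lower, with a median log2 difference of 0.04 over the 12, where 15.5% of all genes were called. The 4 with the largest differences were lower in kTreg cells, Bach2, a repressor of effector genes, at -2.76 ± 0.24 (limma adjusted p = 1.7e-08), Eomes at -2.75 ± 0.54 (adjusted p = 0.00064), Foxp1, known to repress Il7r, at -1.41 ± 0.13 (adjusted p = 7.6e-08), and Klf2, a factor of resting T cells, at -1.09 ± 0.19 (adjusted p = 0.00018). Eomes is also a marker of natural killer cells, whose marker sum was 757 to 1829.9 in old rTreg libraries and 247 to 522 in young ones. Foxo1, known to activate Il7r and named here after its value was seen, was at -0.75 ± 0.07 (adjusted p = 6.2e-08). Gfi1, known to repress Il7r, was higher in aTreg than in rTreg cells by 0.71 ± 0.17 (adjusted p = 0.0083). The part of the factors named here in the levels of Il7r and Il2rb was not tested. With age in aTreg cells the differences of Bach2 and Foxp1 were -1.81 ± 0.33 and -0.71 ± 0.19 (adjusted p = 0.0026 and 0.039). Tbx21, which encodes T-BET, an activator of Il2rb, rose by 2.38 ± 0.28 with age in rTreg cells (adjusted p = 2e-05), where Il2rb was not called. The natural killer marker sum given above was higher in the same old libraries, and the part of those cells in this rise was not tested.

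Of 21 other class I cytokine receptor genes, 16 had listed values and 14 were tested. Between kTreg and rTreg cells 2 were higher and 4 lower, where 15.5% of all genes were called. Il12rb1, a chain of the IL-12 and IL-23 receptors, was higher in kTreg cells by 1.75 ± 0.16 on the log2 scale (limma adjusted p = 5.9e-08). Il6ra, the receptor chain of IL-6, was called with age in aTreg and kTreg cells, at -1.46 ± 0.17 and -1.21 ± 0.17 (adjusted p = 3.8e-05 and 0.00048). In old rTreg cells 4 were higher and 1 lower, where 5.83% of all genes were called. Csf2rb and Csf2rb2 had means of 67.0 ± 53.3 and 7.50 ± 6.52 in young and 1635 ± 615 and 245 ± 129 in old rTreg libraries (adjusted p = 0.016 and 0.0026). Mast cells and macrophages carry these chains, the sums of those cells' markers were higher in the same libraries, and their part in these values was not tested.

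For each member, the 3 genes with the highest correlation of log2 values over the 24 libraries were listed as a description of likeness. The libraries share mice and groups, so the coefficients carry no test. For Il2ra they were Ifngr2 (Pearson r = 0.849), Sesn1 (0.839) and Irf9 (0.821), and for Il7r Anxa7 (0.922), Crot (0.914) and Slco3a1 (0.900). Il4ra went with Ift80 (0.932), Lrrc32 (0.907), which encodes the Treg surface protein GARP, and Slc44a2 (0.899). Il2rg went with D16Ertd472e (0.907), Spryd7 (0.856) and Traf3ip2 (0.844), and Il2rb with Cd6 (0.879), Gvin3 (0.859) and Prkch (0.844). Il15ra went with AW112010 (0.871), Ifngr1 (0.850) and Cdc42ep3 (0.835), and Il21r with Abtb2 (0.846), Socs3 (0.838) and Ephb6 (0.797). Both chains of the interferon gamma receptor were thus in these lists, Ifngr2 with Il2ra and Ifngr1 with Il15ra, and no member was among the 3 genes most like another.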

How the data were processed

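The study sorted rTreg, aTreg and kTreg cells, extracted their RNA with a micro column kit and made full-length cDNA by PCR with SMART-Seq v4, which adds no molecular identifiers. Paired reads were aligned to GRCm39 with HISAT2 2.2.1, sorted with SAMtools 1.13 and counted per gene with HTSeq 1.99.2, and the tools named in the submitters' processing notes include DESeq2 1.44.0. The annotation release, strand setting and treatment of multiply mapped reads are not given in the sources used here. The values the authors deposited are a signal on the scale of reads, called normalized counts here: every library was scaled by a size factor of its own. They cover 17464 genes, each holding 100 or more reads across the 24 libraries. All columns were mapped to a sample by name, with 0 left over. Whole reads were recovered within 0.001 reads from the steps between values, with 1 read worth 0.694 to 1.32, so the depth was 15045747 to 29521942 reads on listed genes. Such reads are copies and not independent molecules, so the spread between mice served as the error.

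Identifiers were looked up in GENCODE M39 (GRCm39), which gave a symbol and position to 17353, and 111 were left without. Differences were tested by limma 3.58.1 (R 4.3.3) with its trend option. The model had 6 groups and took log2(value + 1) of the 16630 genes that reached 10 in 4 or more libraries. This scale understates the change of low genes. Subset contrasts weighted the ages equally. Adjusted p-values are Benjamini-Hochberg values over all genes tested. The study's design text gives 4 young and 4 old mice as the source of all 3 subsets, so equal numbers mark a mouse. After subtracting group means, libraries correlated with a median of 0.15 (rTreg and aTreg), 0.091 (rTreg and kTreg) and 0.12 (aTreg and kTreg) within a mouse, against -0.033, -0.034 and -0.051 between mice of the same age, and the consensus correlation was 0.062. Alternatives were edgeR 4.0.16 and DESeq2 1.42.0 on the recovered reads, the replicate block, other pseudocounts, filters, scalings and thresholds, library weights, only the groups compared, leaving out each library or mouse, and, chosen after seeing the data, leaving out the 3 libraries that stood apart. Scripts were tested on simulated data. Python 3.11.15 with numpy 2.4.6, pandas 2.3.3 and matplotlib 3.10.9 did the rest.

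The members, gene lists and motifs were chosen with earlier results of these data known. Besides the 7 members, the text names all ligands and partner chains, up to 4 called genes of largest change per list and comparison, and for each member the 3 genes with the highest Pearson correlation. Foxo1, and Bcl2l1 for kTreg against aTreg cells, were added to these after their values were seen. Level comparisons between genes are per kilobase of merged exons. A promoter entry existed in the RefSeq table for 6 of 7 members. Values of some genes on these lists are not reported here.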

Additional observations from a re-analysis of the deposited data

Results flagged for a closer look

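Il2ra in old kTreg library 3 had a normalized count of 4588, far from the 5574 to 5709 of the other 3 mice of its group. Il4ra in old kTreg library 1 had 4858, far from the 3436 to 3627 of the others. Dixon's test at the 95% level was applied to 42 groups of 4 libraries, and chance alone marks about 5% of such groups, so about 2 would be marked by chance. The age difference of Il2rg was larger in aTreg than in rTreg cells by 0.74 on the log2 scale, by a test of the interaction with limma. That call was sensitive to the choice of libraries and of method, as described with the results on processing.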

How the results depend on the processing

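Of 63 member differences (7 genes in 9 comparisons), 11 were called, and 5 of these were called under every alternative run, Il2ra and Il7r with age in aTreg cells, Il7r and Il4ra in kTreg against rTreg cells, and Il7r in aTreg against rTreg cells. None of the 11 changed sign under an alternative, and 14 of the others did. The number of members called against rTreg cells in kTreg cells was 5 with no fold threshold, 2 with library weights (Il15ra lost) and 2 to 3 without single libraries or mice, and in aTreg cells 2 with library weights (Il4ra lost) and 1 to 3 without single libraries or mice. With age it was 0 in rTreg cells with only the groups compared, and 1 in kTreg cells with library weights or an unadjusted p and the fold threshold. In aTreg cells it was 2 with only the groups compared or without the 3 libraries (Il4ra lost), 4 with library weights (Il15ra gained), and 2 to 4 without single libraries or mice. For the age interaction of kTreg and aTreg cells it was 3 with an unadjusted p and the fold threshold and 1 with library weights. For that of aTreg and rTreg cells it was 0 with only the groups compared, equal sums, TMM scaling, edgeR or without the 3 libraries that stood apart, 2 with DESeq2, 3 with an unadjusted p and the fold threshold and 0 to 2 without single libraries or mice. With the mouse as a replicate block it was 2, as a random effect or a fixed term, Il7r joining Il2rg, and no other call of a member changed under the block.

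Signs changed in differences that were not called. With library weights the values were -0.059 (Il15ra, kTreg over aTreg), 0.088 (Il4ra, age in rTreg), 0.0051 and -0.097 (Il2rb, age in aTreg and kTreg), and, for age interactions, -0.10 (Il2rb, kTreg and aTreg), -0.025 (Il7r, kTreg and rTreg) and 0.051 (Il2ra, aTreg and rTreg). Without the 3 libraries they were 0.042 (Il2rb, aTreg over rTreg), -0.075 (Il2rb, age in kTreg), -0.049 (Il2rb, interaction of kTreg and aTreg), and -0.052 and 0.065 (Il15ra and Il4ra, interaction of kTreg and rTreg). Il15ra for kTreg over aTreg cells was -0.0013 with equal sums and -0.0042 with TMM. Leaving out single libraries or mice gave ranges of -0.045 to 0.13 (Il2ra), -0.24 to 0.027 (Il4ra) and -0.066 to 0.11 (Il15ra) for kTreg over aTreg, -0.16 to 0.042 (Il2rb) for aTreg over rTreg, -0.099 to 0.11 (Il2rb) with age in kTreg and -0.19 to 0.069 (Il4ra) in rTreg cells. For the interaction of kTreg and rTreg cells they were -0.27 to 0.015 (Il2rb), -0.20 to 0.084 (Il4ra) and -0.13 to 0.34 (Il15ra), and for that of kTreg and aTreg cells -0.25 to 0.100 (Il15ra). The causes were not tested.

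Over all genes, library weights called 2322 genes for kTreg against aTreg cells instead of 1229, and 1288 and 849 with age in aTreg and kTreg cells instead of 451 and 209. With age in those subsets DESeq2 called 700 and 426, edgeR called 109 in kTreg cells, and a fit of only the groups compared called 478, 767 and 57 in rTreg, aTreg and kTreg cells instead of 970, 451 and 209. Groups of 4 mice and PCR copies without molecular identifiers limit the precision. Neither the gate for Treg cells nor the strand setting of the counting is given in the sources used here.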
